A study of Mus musculus with 4 samples.

Results

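The 9 genes described here make, bind or break down retinoic acid, the active form of vitamin A, and were taken from the deposited table by symbol: Rdh10, Aldh1a1, Aldh1a2, Aldh1a3, Dhrs3, Stra6, Crabp1, Crabp2 and Cyp26a1. All 9 have a row among its 20377 genes, and all 9 passed the requirement of a value above 0 in at least 1 library. They were measured by RNA sequencing in cells that were reprogrammed from primary gallbladder cells of mice and had switched on an insulin reporter. The donor mice had a C57BL/6 background, were 8 weeks old and carried the transgene MIP-GFP, written B6.Cg-Tg(Ins1-EGFP)1Hara/J in full, in which an Ins1 promoter drives green fluorescent protein. Over 10 days the cells received the transcription factors Pdx1, Ngn3 (Neurog3), Mafa and PAX6 together with compounds that the labels do not name, so the labels do not show whether a retinoid was given. Reporter-positive cells were then sorted by flow cytometry. There is 1 group, rGBC2, with 4 libraries numbered 1 to 4, and no untreated or unreprogrammed sample was analysed here. Nothing in the labels says that the libraries came from separate animals or cultures, so p-values measure only the spread between these 4 libraries, part of which may be technical.

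Retinol circulates bound to a carrier protein and can enter cells through the membrane receptor Stra6. Rdh10, a dehydrogenase, oxidises retinol to retinal, Dhrs3 reduces retinal back to retinol, and the Aldh1a enzymes oxidise retinal irreversibly to retinoic acid. Crabp1 and Crabp2 bind retinoic acid in the cytoplasm, Cyp26 enzymes inactivate it, and nuclear receptors of the RAR and RXR families read it out at retinoic acid response elements in target genes. In the embryo this signal patterns the foregut and takes part in forming the pancreas.

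The retinoid genes divided sharply by level. Aldh1a1 was abundant, Rdh10 and Dhrs3 had middle levels, and the other 6 genes lay under 1 RPKM in every library. RPKM is reads per kilobase of transcript, scaled to the mapped reads of a library, which allows for transcript length when genes are compared. RPKM does not correct for GC content or for reads that match several genes. In a limma moderated test of log2(RPKM + 1) against a level of 1 RPKM, with Benjamini-Hochberg adjustment over all genes tested and a threshold of 0.05, 3 of the 9 genes lay above 1 RPKM, 5 below, and Crabp2 passed in neither direction. Of the 16919 genes tested, 65.0% lay above and 26.1% below. The median of the members' mean levels was 0.393 RPKM, against 7.38 RPKM over all genes tested. These counts describe the list and carry no test of it.

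**Figure D1:**
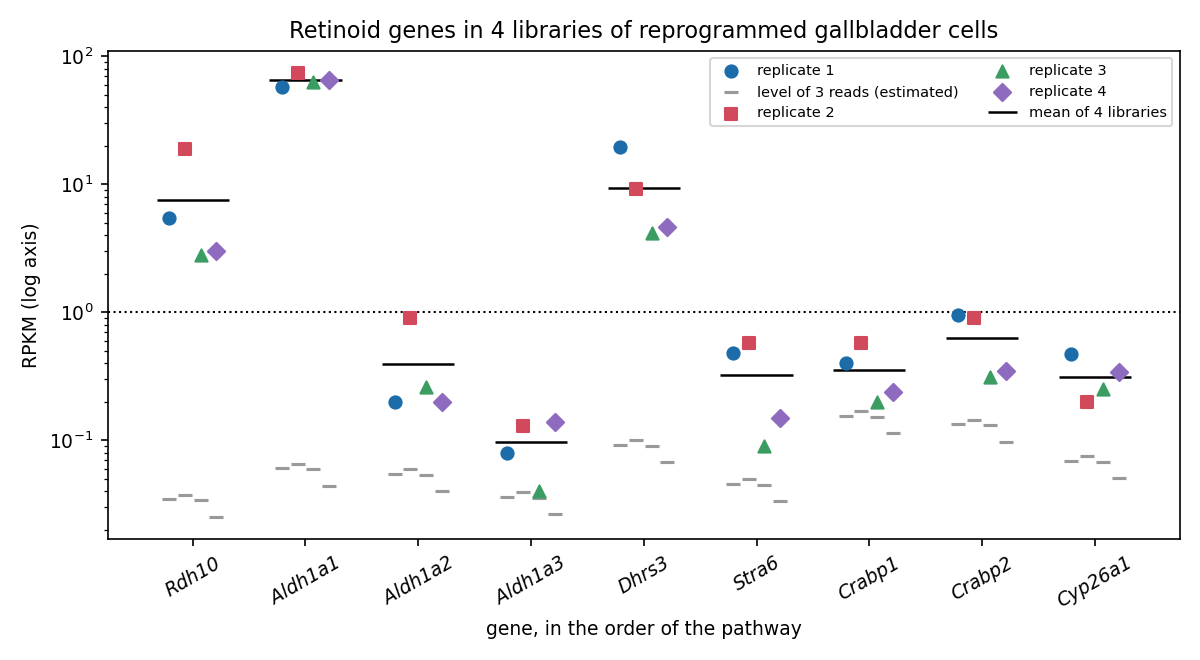
RPKM (log axis) of the 9 retinoid genes in each of the 4 libraries, with the mean as a horizontal bar, the level of 3 estimated reads as grey ticks and 1 RPKM as a dotted line. Aldh1a1 sits between 57.4 and 74.1 RPKM in the 4 libraries, Rdh10 and Dhrs3 between 2.80 and 19.6 RPKM, and all other points lie under 1 RPKM.

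Ordered by mean level, the genes ran from Aldh1a1 through Dhrs3, Rdh10, Crabp2, Aldh1a2, Crabp1, Stra6 and Cyp26a1 to Aldh1a3. The lowest Aldh1a1 value (57.4 RPKM) was above the highest Dhrs3 value (19.6 RPKM), and the lowest Rdh10 value (2.80 RPKM) was above the highest value of any lower gene (0.95 RPKM, Crabp2). The ranges of Dhrs3 and Rdh10 overlapped. The ranges of neighbours from Crabp2 down to Cyp26a1 also overlapped, so their order does not hold against the spread between libraries. Aldh1a3 reached at most 0.14 RPKM, below every value of Crabp2, Aldh1a2, Crabp1 and Cyp26a1 but within the range of Stra6. Among all genes tested, the mean of Aldh1a1 lay at percentile 90.8, those of Dhrs3 and Rdh10 at percentiles 54.3 and 50.4, and that of Aldh1a3 at percentile 14.8.

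**Figure D2:**
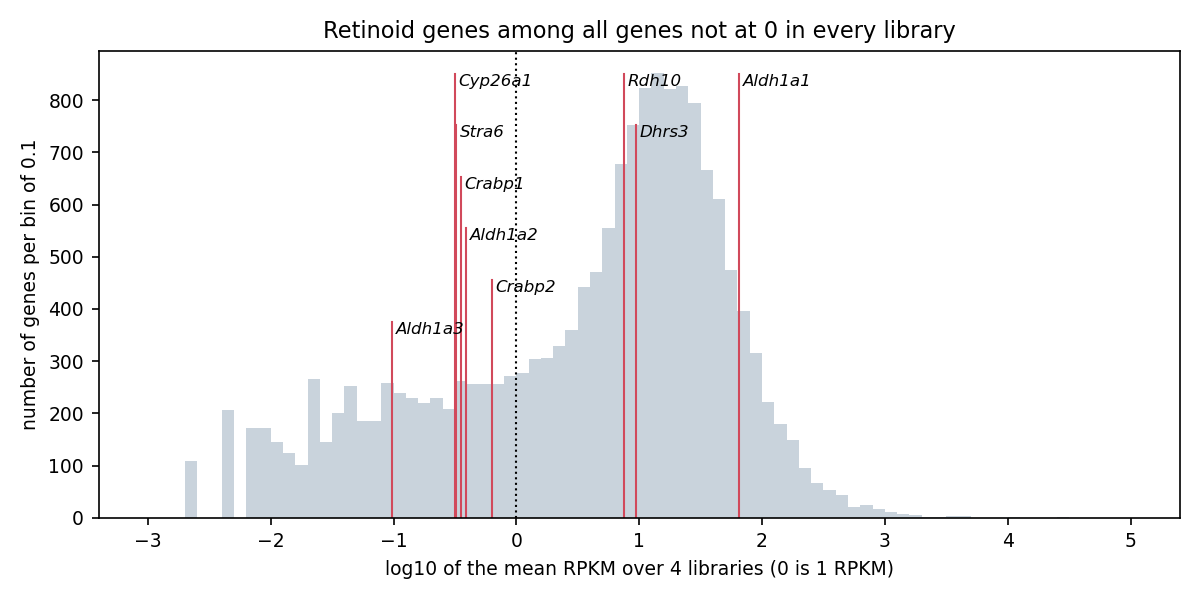
Number of genes (vertical axis) per bin of 0.1 in log10 of the mean RPKM over 4 libraries (horizontal axis) for the 16919 genes not at 0 in every library, with the 9 retinoid genes as red lines whose heights only separate the names. Aldh1a1 lies in the upper tail at percentile 90.8, Rdh10 and Dhrs3 near the middle, and 6 genes to the left of the dotted line at 1 RPKM.

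The deposited values hold no read totals, and the depth was estimated from low values of short olfactory receptor genes at between 22.2 M and 32.95 M per library. Replicates 3 and 4 were far more alike than any other pair. The SD over genes of their log2(RPKM + 1) difference was 0.16, against 0.55 to 0.75 for the other 5 pairs, although 40.9% of genes still differed beyond counting noise. The Y-linked gene Eif2s3y was at 48.5 RPKM in replicate 1 and 44.7 RPKM in replicate 2, but both remaining libraries list it at 0. All 5 markers of insulin-producing cells lay above 1 RPKM, but Pdx1 and Mafa had been delivered to the cells and the sort selected for Ins1 promoter activity, so these 3 do not check the label. The other 2 were Iapp, the highest of the list (2075 to 5201 RPKM), and Ins2 (1091 to 4240 RPKM), and Ins1 was the lowest (107 to 523 RPKM). Of 6 biliary epithelial markers 4 lay above 1 RPKM, with Spp1 and Krt7 the highest and Cftr (0.01 to 1.5 RPKM) the lowest. Over all genes tested, 65.0% lay above 1 RPKM. The mean of Spp1 (639 RPKM) was above that of Krt7 (635 RPKM) through replicate 2 alone, without which they were 408 and 686 RPKM. Gapdh, which every cell uses, was at 0.2, 0, 0.04 and 0.03 RPKM, so a low value or a 0 in this table need not mean a silent gene.

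Rdh10 catalyses the first oxidation of the pathway and was measured at 5.42, 18.9, 2.80 and 3.01 RPKM in replicates 1 to 4. Its row spans chromosome 1 from 16095962 to 16122631 in mm9, the build of the table. Replicate 2 stood well above the other libraries, and the values of replicates 3 and 4 were nearly equal. The mean was 7.52 ± 7.65 RPKM (SD, n = 4), or 3.74 ± 1.46 RPKM without replicate 2 (SD, n = 3). Rdh10 lay above 1 RPKM in 4 of 4 libraries, with a log2(RPKM + 1) excess of 1.73 and a standard error of 0.44 (limma, adjusted p = 0.0108), and between 247 and 1501 estimated reads stood behind each value.

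Aldh1a1, the retinal dehydrogenase that also serves as a marker of several epithelial progenitors, was the most abundant of the isozymes of the second oxidation. It was measured at 57.4, 74.1, 62.7 and 65.2 RPKM in replicates 1 to 4, on chromosome 19 from 20676471 to 20717952. The highest of these values was 1.29 times the lowest, the smallest such ratio among the 9 genes, and between 2846 and 4412 estimated reads stood behind each. Its mean of 64.9 ± 6.95 RPKM (SD, n = 4) lay above 1 RPKM with a log2(RPKM + 1) excess of 5.04 and a standard error of 0.092 (limma, adjusted p = 2.29e-07, 4 of 4 libraries).

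Aldh1a2, the main retinoic acid-forming enzyme of embryonic mesoderm, was low at 0.20, 0.91, 0.26 and 0.20 RPKM in replicates 1 to 4. Its row spans chromosome 9 from 71063595 to 71144050. Replicate 2 again stood apart, and the mean of 0.393 ± 0.346 RPKM (SD, n = 4) became 0.22 ± 0.0346 RPKM without it (SD, n = 3). It lay below 1 RPKM (limma, adjusted p = 0.007). Between 11 and 46 estimated reads stood behind each value.

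Aldh1a3, an isozyme known from eye and nasal development and from dedifferentiated beta cells, was the lowest of the 9 genes. It was measured at 0.08, 0.13, 0.04 and 0.14 RPKM, on chromosome 7 from 73535778 to 73572363, with 7, 10, 3 and 16 estimated reads in replicates 1 to 4. At these depths 3 reads on this transcript correspond to 0.0361, 0.0392, 0.0354 and 0.0264 RPKM, so the lowest value lies close to that limit, which covers counting error only. The gene lay below 1 RPKM in 4 of 4 libraries (limma, adjusted p = 1.40e-06).

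Within each library Aldh1a1 accounted for 98.6% to 99.5% of the summed RPKM of the 3 isozymes. Aldh1a1 exceeded Aldh1a2 in 4 of 4 libraries, by 81.4-fold to 326-fold in RPKM, and the mean difference in log2(RPKM + 1) was 5.59 ± 0.21 (SD, n = 4). Aldh1a1 exceeded Aldh1a3 in 4 of 4 libraries, with a mean log2(RPKM + 1) difference of 5.90 ± 0.13. Aldh1a2 lay above Aldh1a3 in 4 of 4 libraries, with a mean log2(RPKM + 1) difference of 0.32 ± 0.31, about as large as its SD. For each of these 3 differences a two-sided sign-flip permutation test gave an exact p = 0.125, the smallest value that 4 libraries can give, and 0.146 after adjustment over the 7 pairs of genes compared, so none can pass 0.05.

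Aldh1a7, a rodent relative of Aldh1a1 that neighbours it on chromosome 19, was at 12.0, 16.1, 11.0 and 12.4 RPKM in replicates 1 to 4. Its level stood at 17.5% to 21.8% of that of Aldh1a1 in the same library. The transcripts of Aldh1a1 and Aldh1a7 were identical at 89.6% of 2050 aligned bases, and 11.5% of the 36-base windows and 7.53% of the 50-base windows of Aldh1a1 occurred unchanged in Aldh1a7. The separate values of this pair are uncertain to that extent, since the treatment of reads with several matches is not given in the sources used here. No 36-base window of Aldh1a1 occurred in Aldh1a2 or Aldh1a3, whose aligned bases were identical to it at 65.5% and 63.1%.

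**Figure D3:**
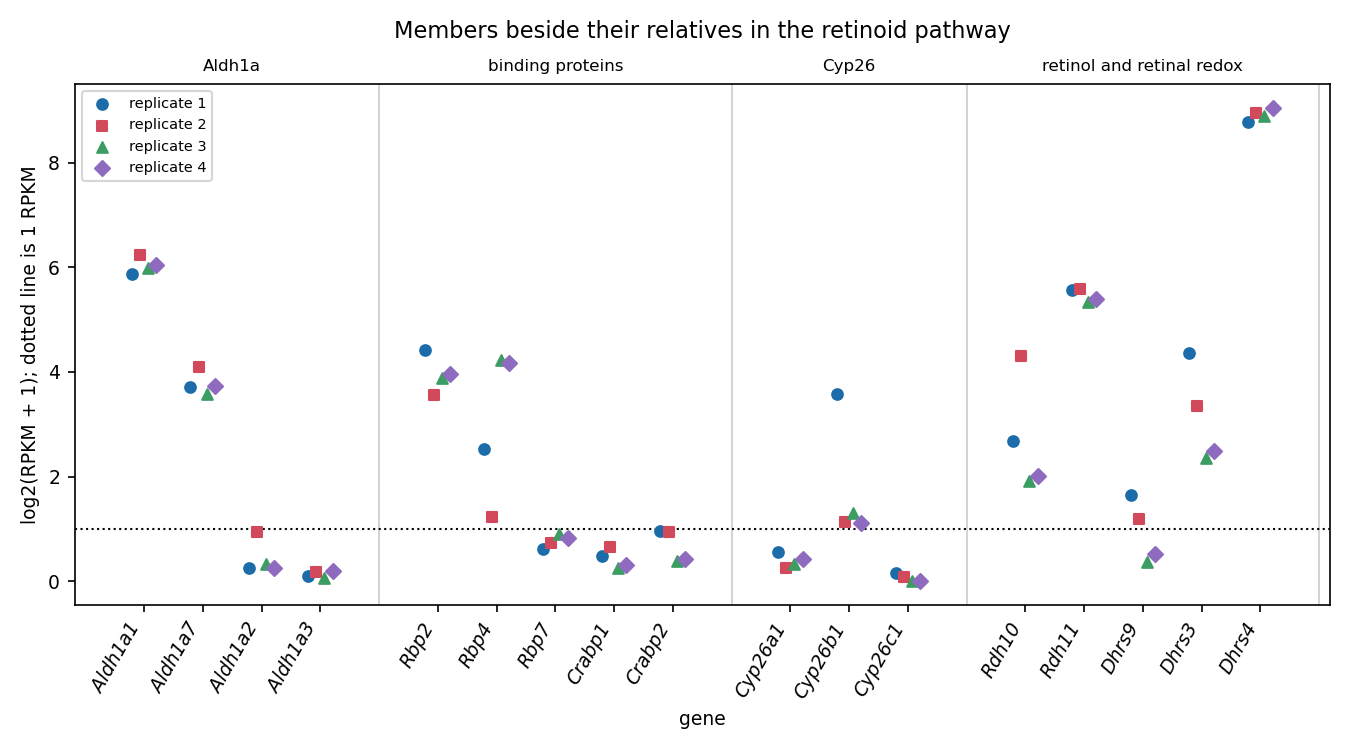
log2(RPKM + 1) of the retinoid genes beside their relatives in each of the 4 libraries, with 1 RPKM as a dotted line. Aldh1a1 is followed by Aldh1a7 at 11.0 to 16.1 RPKM, both Crabp genes lie under the line in every library, and the single high point of Cyp26b1 belongs to replicate 1 (10.9 RPKM).

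Dhrs3 works against Rdh10 by reducing retinal to retinol, and the proteins are known to associate. It was measured at 19.6, 9.22, 4.14 and 4.60 RPKM in replicates 1 to 4, on chromosome 4 from 144482729 to 144517548. Here replicate 1 was the highest library, and replicates 1 and 2 both lay above replicates 3 and 4. The mean was 9.39 ± 7.17 RPKM (SD, n = 4), or 5.99 ± 2.81 RPKM without replicate 1 (SD, n = 3). The level lay above 1 RPKM with a log2(RPKM + 1) excess of 2.14 and a standard error of 0.37 (limma, adjusted p = 0.00211, 4 of 4 libraries).

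The balance between Dhrs3 and Rdh10 changed direction between libraries. The ratio of Dhrs3 to Rdh10 in RPKM was 3.61 in replicate 1, 0.489 in replicate 2, 1.48 in replicate 3 and 1.53 in replicate 4. Dhrs3 was thus the higher of the pair in 3 libraries and Rdh10 in replicate 2. The log2(RPKM + 1) difference averaged 0.41 with an SD of 1.08 (n = 4, sign-flip permutation, exact p = 0.625, adjusted 0.625), and without replicate 1 it was -0.013. Aldh1a1 exceeded Rdh10 in 4 of 4 libraries, with a mean log2(RPKM + 1) difference of 3.30 ± 1.01 (sign-flip permutation, exact p = 0.125, adjusted 0.146) and RPKM ratios from 3.93 in replicate 2 to 22.4 in replicate 3.

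Stra6, the receptor that takes up retinol from its plasma carrier, was low at 0.48, 0.58, 0.09 and 0.15 RPKM in replicates 1 to 4. Its row lies on chromosome 9 from 57976894 to 58001804. The values of replicates 1 and 2 lay above those of replicates 3 and 4, with 32 and 35 estimated reads against 6 and 13. The mean of 0.325 ± 0.241 RPKM (SD, n = 4) lay below 1 RPKM (limma, adjusted p = 0.00187, 4 of 4 libraries).

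Crabp1, which is thought to hold retinoic acid in the cytoplasm and hand it to breakdown, was measured at 0.40, 0.58, 0.20 and 0.24 RPKM, on chromosome 9 from 54612614 to 54620916. Its short transcript gave only 8, 10, 4 and 6 estimated reads in replicates 1 to 4, so these values rest on little depth. It lay below 1 RPKM (limma, adjusted p = 0.000584, 4 of 4 libraries). Crabp2, which delivers retinoic acid to its nuclear receptors, was at 0.95, 0.91, 0.31 and 0.35 RPKM, on chromosome 3 from 87752614 to 87757294, with 7 to 21 estimated reads.

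Replicates 1 and 2 held more Crabp2 than the other libraries, the highest value being 3.06 times the lowest. All 4 Crabp2 values lay under 1 RPKM, but the test did not place the gene below it (limma, adjusted p = 0.0512). It did so without replicate 1 (limma, adjusted p = 0.0356), without replicate 2 (0.0472) and after upper-quartile rescaling (0.0357). It did not without replicate 3 (limma, adjusted p = 0.166), without replicate 4 (0.159) or on log2(RPKM + 0.1) (0.0764). Nor did it without a mean-variance trend (0.0824), with a required mean of at least 0.1 RPKM (0.0585) or with replicates 3 and 4 averaged (0.162). Each adjusted p is over all genes tested in that run. Crabp2 exceeded Crabp1 in 4 of 4 libraries, with a mean log2(RPKM + 1) difference of 0.25 ± 0.17 (SD, n = 4, sign-flip permutation, exact p = 0.125, adjusted 0.146).

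Cyp26a1, the cytochrome that inactivates retinoic acid, is a classic direct target of the acid that it degrades. It was low in all libraries, at 0.47, 0.20, 0.25 and 0.34 RPKM in replicates 1 to 4, on chromosome 19 from 37772297 to 37776026. Neither pair of libraries stood apart for this gene, and 8 to 20 estimated reads stood behind each value. The mean of 0.315 ± 0.118 RPKM (SD, n = 4) lay below 1 RPKM (limma, adjusted p = 0.000114, 4 of 4 libraries). Aldh1a1 exceeded Cyp26a1 in 4 of 4 libraries, with a mean log2(RPKM + 1) difference of 5.64 ± 0.27 (sign-flip permutation, exact p = 0.125, adjusted 0.146).

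The relatives of Cyp26a1 differed from it. Cyp26b1 was at 10.9 RPKM in replicate 1 and at 1.19, 1.47 and 1.17 RPKM in replicates 2 to 4, which was 3.44 to 23.2 times the Cyp26a1 level of the same library. It passed the test in neither direction (limma, adjusted p = 0.158), and its mean of 3.69 RPKM became 1.28 RPKM without replicate 1. Cyp26c1 reached 0.12 RPKM in replicate 1 and 0.06 RPKM in replicate 2, and both other libraries list it at 0. Cyp26a1 thus made up 4.08% to 22.5% of the summed Cyp26 level.

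The promoters of Cyp26a1 and of Rarb, the gene of a retinoic acid receptor, are shown because both carry the retinoic acid response element through which the acid is known to induce these genes. The sequences are the 250 bases before the RefSeq start in GRCm38.p6, 5′ to 3′ on the strand of the gene, with the element in capitals. They lie at chr19:37697558-37697807 on the plus strand (Cyp26a1) and chr14:16575477-16575726 on the minus strand (Rarb). This build differs from that of the table.
Cyp26a1: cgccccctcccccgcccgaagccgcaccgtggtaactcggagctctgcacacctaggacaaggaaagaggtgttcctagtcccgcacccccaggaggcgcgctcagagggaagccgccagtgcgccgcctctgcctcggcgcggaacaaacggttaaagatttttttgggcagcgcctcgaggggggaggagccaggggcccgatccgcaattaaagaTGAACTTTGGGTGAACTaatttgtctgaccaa
Rarb: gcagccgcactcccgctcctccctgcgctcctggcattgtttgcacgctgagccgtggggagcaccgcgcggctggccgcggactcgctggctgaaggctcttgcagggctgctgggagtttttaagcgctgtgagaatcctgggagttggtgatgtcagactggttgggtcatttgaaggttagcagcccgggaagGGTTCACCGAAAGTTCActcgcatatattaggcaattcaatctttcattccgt

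The element searched for was the DR5 motif, a direct repeat of the nuclear receptor half-site with a spacer of 5 bases, on both strands. In Cyp26a1 it lies 32 to 16 bases before the start and reads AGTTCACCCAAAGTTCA on the opposite strand, and in Rarb it lies 53 to 37 bases before the start and reads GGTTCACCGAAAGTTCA. The motif was chosen with both of these promoters in mind. Of 32851 promoters of this length, 29 (0.0883%) held a DR5 motif. Of the 9 members, 6 have an entry in the promoter table, and among these Cyp26a1 alone held the motif. A match describes the letters of this window and says nothing on whether a receptor was bound. Rarb was measured at 1.87, 1.48, 0.58 and 0.75 RPKM in replicates 1 to 4 and passed the test in neither direction (limma, adjusted p = 0.686).

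An order of the libraries was shared by several members. For 5 of the 9 genes (Rdh10, Dhrs3, Stra6, Crabp1 and Crabp2) both replicates 1 and 2 lay above both replicates 3 and 4, against 38.5% of all genes tested. No member showed the opposite order, against 24.2% of all genes tested. The labels do not divide the libraries in this way and no test was made. Crabp1 had only 8 and 10 estimated reads in replicates 1 and 2, against 4 and 6 in replicates 3 and 4. Crabp2 had 21 and 19 against 7 and 11, and Stra6 had 32 and 35 against 6 and 13. The part of counting error in the order of these low genes was not tested. The order moved with other features of the libraries, whose part in it was not tested. The Y-linked gene Eif2s3y, given above, divides the libraries in the same way, with values of 48.5 and 44.7 RPKM against 0 and 0. Across 11842 genes with a mean of at least 1 RPKM, the difference between replicates 1 and 2 and replicates 3 and 4 had a Spearman correlation of -0.57 with the GC content of the transcript and 0.25 with its length, where genes share the same 4 libraries and are not independent replicates. The median GC content of these 11842 genes was 50.9%. It was 46.8% for Rdh10, 54.8% for Dhrs3, 56.8% for Stra6, 57.4% for Crabp1 and 50.6% for Crabp2. The log2(RPKM + 1) differences of Rdh10 and Dhrs3 were 1.53 and 1.43, against a median of 0.09 for the 11842 genes. The part of GC content in the order of the 5 members was not tested.

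**Figure D4:**
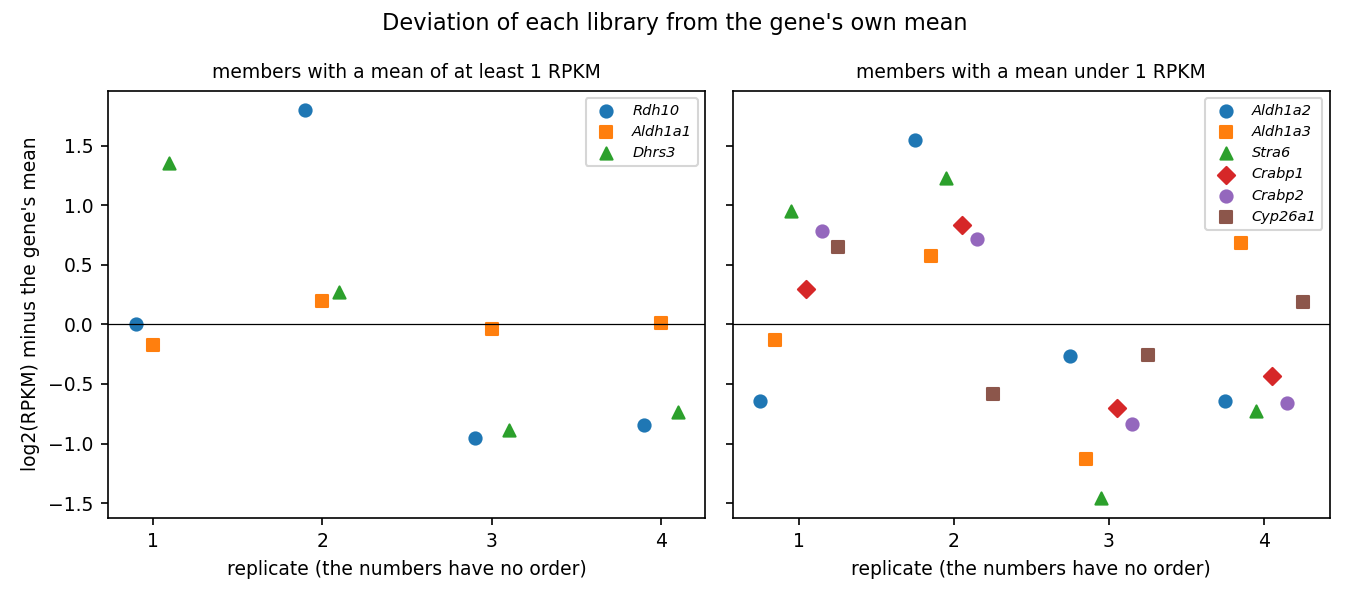
Deviation of log2(RPKM) in each library from the gene's own mean, for the 3 retinoid genes with a mean of at least 1 RPKM (left) and the 6 below it (right), with replicate numbers on the horizontal axis. Replicates 3 and 4 lie below the mean for Rdh10, Dhrs3, Stra6, Crabp1 and Crabp2. Replicate 2 is highest for Rdh10, Aldh1a1, Aldh1a2, Stra6 and Crabp1, and the Aldh1a1 points stay close to 0.

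Genes of similar profile were sought for Dhrs3 and Rdh10, the members with a mean of at least 1 RPKM and an SD of at least 0.5 in log2(RPKM + 1). Members under 1 RPKM were not considered, although the highest Stra6 value was 6.44 times the lowest, against 4.73 times for Dhrs3. Likeness was the root mean square difference of log2(RPKM + 1) after subtracting each gene's mean, over 4 libraries and 11966 genes. For Dhrs3 the nearest were Pigr, the epithelial transporter of immunoglobulins (11.5, 5.56, 2.21 and 2.68 RPKM), Creb3l1, a membrane-bound transcription factor, and Gm609, at differences of 0.042, 0.055 and 0.058. For Rdh10 they were 9930023K05Rik, Blm, a DNA helicase (1.98, 6.39, 0.42 and 0.53 RPKM), and B3gnt5, a glycosyltransferase, at differences of 0.084, 0.13 and 0.14. With 4 libraries such likeness describes the profiles only.

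Among 44 other genes of retinoid transport, storage and oxidation, chosen from general knowledge of the pathway, 43 had a row, 26 lay above 1 RPKM, 6 below, 7 passed in neither direction and 4 were listed at 0 in every library. Of all genes tested, which leave out those at 0, 65.0% lay above and 26.1% below. The median of the mean levels of these 43 genes was 5.86 RPKM, against 7.38 RPKM over all genes tested. The first median includes the 4 genes at 0, whereas such genes are left out of the second, so the 2 are not fully alike. Enzymes with broad substrate ranges were among the most abundant, led by Dhrs4, a peroxisomal carbonyl reductase that also acts on retinal, at 483 ± 37.5 RPKM (SD, n = 4). Dhrs7, a related short-chain dehydrogenase, stood at 185 ± 32.3 RPKM, Adh5, a widely expressed alcohol dehydrogenase, at 70.8 ± 5.19 RPKM, and Rdh11, a retinal reductase, at 43.5 ± 3.81 RPKM (SD, n = 4).

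These 4 enzymes lay above 1 RPKM (limma, adjusted p of at most 2.39e-07), and each exceeded Rdh10 and Dhrs3 in every library. Rdh11 was slightly higher in replicates 1 and 2 (46.5 and 47.0 RPKM) than in replicates 3 and 4 (39.5 and 41.1 RPKM).

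Of 13 receptors, coregulators and carriers to receptors, 11 lay above 1 RPKM, none below, Rarb in neither direction, and Rxrg was listed at 0 in every library. The shares over all genes tested were 65.0% above and 26.1% below. The corepressor Ncor1 had the highest mean at 34.7 ± 14.1 RPKM, and the receptor Rxrb stood at 24.1 ± 3.29 RPKM, the coactivator Ncoa2 at 18.7 ± 5.03 RPKM and Ppard, a receptor for fatty acids, at 12.6 ± 2.95 RPKM (SD, n = 4). Of the retinoic acid receptors, Rarg stood at 11.1 ± 0.944 RPKM and Rara at 6.19 ± 0.876 RPKM (SD, n = 4), both above 1 RPKM in 4 of 4 libraries (limma, adjusted p = 4.94e-06 and 7.88e-05).

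Of 16 genes known to respond to retinoic acid in at least some cells, 7 lay above 1 RPKM, 6 below, 2 in neither direction, and Hoxb1 was listed at 0 in every library. Over all genes tested, 65.0% lay above and 26.1% below. Rarb and Cyp26b1 also stand in the lists above. Abundant members were Tgm2, a transglutaminase, at 61.4 ± 8.44 RPKM, Nrip1, a nuclear receptor corepressor, at 19.2 ± 9.39 RPKM, and Meis2, a Hox cofactor, at 8.34 ± 5.80 RPKM (SD, n = 4). Meis2 was at 16.9 RPKM in replicate 1, and its mean without that library was 5.49 RPKM. These genes also answer to other signals, and the data hold no sample without reprogramming against which a response could be measured.

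**Figure D5:**
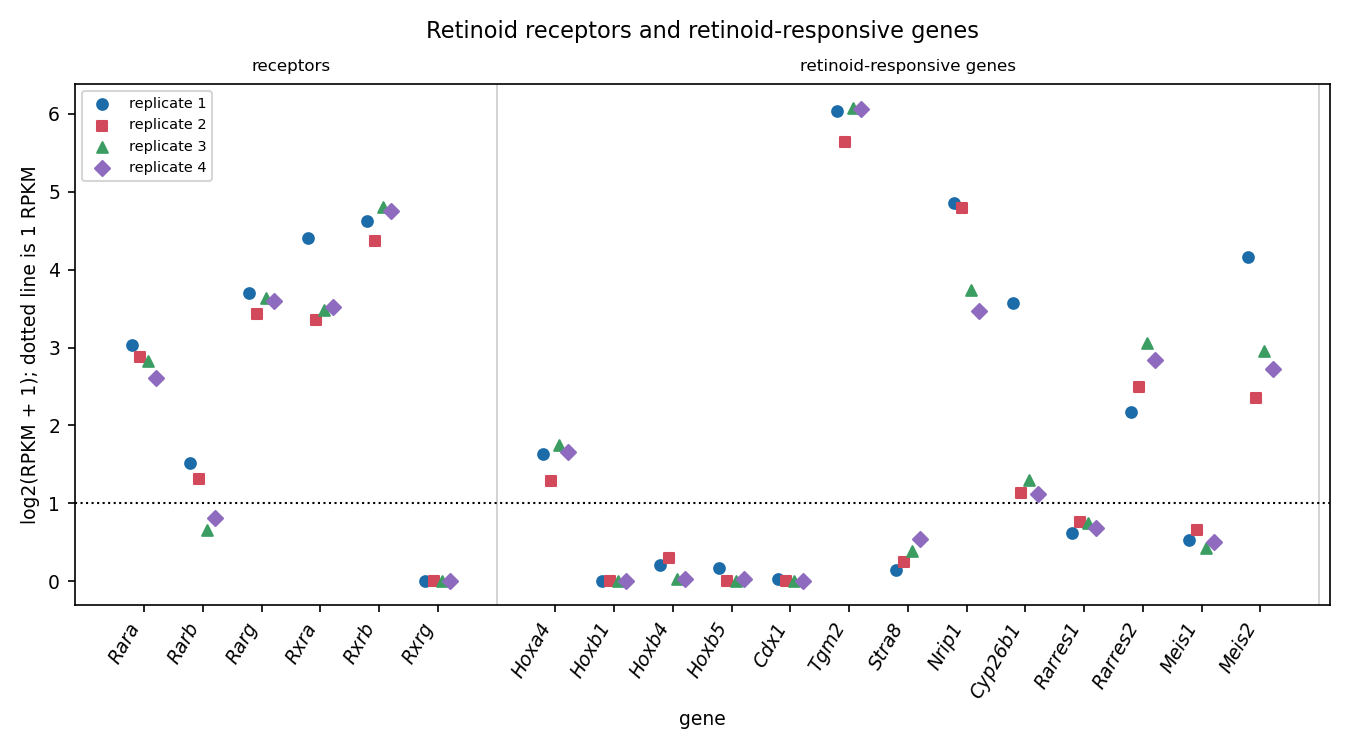
log2(RPKM + 1) of the retinoic acid and retinoid X receptors and of retinoid-responsive genes in each of the 4 libraries, with 1 RPKM as a dotted line. Rarb lies around the line with replicates 1 and 2 higher (1.87 and 1.48 RPKM), Rxrg and Hoxb1 are at 0 in every library, and of the plotted genes Tgm2 is the highest, between 48.8 and 66.5 RPKM.

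Markers of cells that store or make retinoids elsewhere were examined for the whole sorted sample, in which fewer cells of a type and less RNA per cell cannot be told apart. The summed level of 9 stellate cell genes was 11.8 to 13.3 RPKM, of which Lrat, the enzyme that esterifies retinol, was the highest member at 5.68 to 8.29 RPKM, while Hand2, the lowest, was at 0 in replicates 2 and 3 and at most 0.06 RPKM, and 2 of the 9 lay above 1 RPKM. Of 5 mesothelial genes, Msln alone lay above 1 RPKM, at 18.0, 52.5, 73.7 and 78.8 RPKM, and Wt1 reached at most 0.08 RPKM. Wt1, Gpm6a and Upk3b each had their highest value in replicate 2 (0.08, 0.38 and 0.09 RPKM), while Lrrn4 was equal in replicates 1 and 2 (0.7 RPKM) and Msln was highest in replicate 4. Replicate 2 was the library in which Aldh1a2 and Rdh10 were also highest, as were Aldh1a1 (74.1 RPKM), Stra6 and Crabp1 (0.58 RPKM each). The part of mesothelial cells in these values was not tested. None of 6 fibroblast genes passed the test above 1 RPKM, which 65.0% of all genes tested did. The summed level of the fibroblast genes was highest in replicate 1 (5.07 RPKM, against 2.10 to 2.47 RPKM in the others). Dhrs3 and Cyp26b1 were also highest in that library, as were Crabp2 (0.95 RPKM) and Cyp26a1 (0.47 RPKM). The part of fibroblasts in these values was not tested. The fibroblast sum was carried by Pdgfra, the highest of the list (3.12 RPKM in replicate 1 and 0.87 to 1.06 RPKM in the others), and Col1a1 (1.34 against 0.47 to 0.54 RPKM). Col1a2 was lowest in replicate 1 (0.53 against 0.67 to 0.84 RPKM), Dcn was at 0.08 RPKM in replicates 1 and 4 alike, Col3a1 was listed at 0 in replicates 1 to 3 and Lum in every library. The summed levels of 5 leukocyte genes (0.06 to 0.27 RPKM) and 4 endothelial genes (0.11 to 0.49 RPKM) were low, with Lyz2 and Tek the highest (at most 0.19 and 0.25 RPKM), Cd3e and Emr1 listed at 0 in every library and Cdh5 at most 0.05 RPKM. Of 6 hepatocyte genes, Alb and Ttr lay above 1 RPKM, with Alb, the highest, at 2.63 RPKM in replicate 1 and 23.0 to 35.2 RPKM in the others, and Cyp2e1 was listed at 0 in 3 libraries.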

How the data were processed

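Samples were 4 libraries of total RNA from sorted reporter-positive cells, prepared with TruSeq v2 per the labels' protocols. The authors deposited 1 table of RPKM values rounded to 2 decimals, with 1 RefSeq transcript per symbol. CASAVA 1.8.2, Bowtie and build mm9 are named per the submitters' processing notes. Which program counted reads, and with which strand setting, is not given in the sources used here, and the table does not say whether its starts count from 0 or 1. The table also holds 6 per-sample columns that match no sample of the series, and they were not used.

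Lengths, GC content and shared windows came from GENCODE M21 transcripts, matched by RefSeq identifier for 98.1% of genes. Promoters are RefSeq's, of GRCm38.p6. Depth was estimated by fitting the RPKM of 1 read to 14 to 33 low values per library among 993 olfactory receptor genes spanning under 1100 bases. The fit searched a limited range of depths, and a doubled depth lay outside it for every library and was not compared. Estimated reads are therefore approximate, and floors of 3 reads cover counting error only.

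The test was two-sided, with limma 3.58.1 in R 4.3.3, moderated variances and a mean-variance trend, on log2(RPKM + 1), a scale that shrinks the differences of low genes. The 3458 genes at 0 in every library were not tested. For the 7 pairs of genes, exact sign-flip permutation tests were used. Replicates 3 and 4 were counted separately. They differed beyond counting noise in 40.9% of genes, which does not show that they are independent. The members and lists were chosen with earlier results of these data known. The text names all members, the 5 most abundant genes of each related list, close homologues of members, the 3 genes nearest in profile to members that varied, and the highest and lowest markers. Some genes that this rule takes in are not reported here, though they count in the lists. Rara, Rarb, Rarg, Rxrg, Hoxb1, the other markers and library checks named, and the genes of the closing section were chosen after their values were seen.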

Additional observations from a re-analysis of the deposited data

Results flagged for a closer look

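Of the genes named in the text, 55 were checked, and 17 of these had 1 library far from the other 3. The measure was the gap to the nearest library over the whole range, in RPKM, against Dixon's critical value for 4 samples. Chance marks about 1 in 20 such groups, the libraries are shared by all genes, and some of these genes were named because their values had been seen. Of the 9 retinoid genes, 2 were past the critical value, both in replicate 2, namely Rdh10 at 18.9 RPKM (gap over range 0.837) and Aldh1a2 at 0.91 RPKM (0.915).

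Replicate 2 was also the outlying library for 7 others of the genes checked. Pdx1, which had been delivered to the cells, was not among those checked. It was also past the critical value, lowest in replicate 2 at 1948 RPKM (gap over range 0.847). There Dhrs7 was highest at 233 RPKM and Tgm2 lowest at 48.8 RPKM. The biliary markers Spp1 (1332 RPKM) and Cftr (1.5 RPKM), the mesothelial markers Wt1 (0.08 RPKM) and Gpm6a (0.38 RPKM) and the endothelial marker Cdh5 (0.05 RPKM) were each highest in that library. Replicate 1 was the outlying library for Cyp26b1 (10.9 RPKM), Adh1 (24.4 RPKM), the fibroblast markers Pdgfra (3.12 RPKM) and Col1a1 (1.34 RPKM), the stellate cell marker Hand2 (0.06 RPKM) and Ins2, which was lowest there at 1091 RPKM. Cyp2e1 (0.02 RPKM) and Col3a1 (0.01 RPKM) had a value above 0 in replicate 4 alone. Some outlying values rest on very few estimated reads, namely 1 for Cyp2e1, 2 for Col3a1, 3 for Hand2, 4 for Cdh5 and 5 for Wt1. A gene with a value above 0 in 1 library alone is past the critical value by construction. None of the 7 differences between members was past the critical value.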

How the results depend on the processing

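Of 156 recomputed levels and counts, 145 kept their direction and their side of the threshold or stayed within 1.5 times the main count. The 7 differences between pairs of genes could not reach the threshold in this design, and 41 of their 42 recomputed values kept their direction. The 3 members above 1 RPKM (Aldh1a1, Rdh10 and Dhrs3) stayed above the reference in every alternative run, including those with a reference of 0.5 or 2 RPKM. For Rdh10 the highest adjusted p against 1 RPKM was 0.0394 (limma), without replicate 1. Against 2 RPKM it was 0.0488 (limma). With a reference of 0.5 RPKM, 2 members lay below it in place of 5, since Aldh1a2 (-0.14 on the log2 scale, limma adjusted p = 0.335), Stra6 (-0.20, 0.117) and Crabp1 (-0.16, 0.0945) no longer passed, and Crabp2 changed sign (0.095, 0.490). Crabp2 passed below the reference after upper-quartile rescaling (-0.33), with a reference of 2 RPKM (-0.91), and without replicate 1 or 2, and its values without 1 replicate ran from -0.41 to -0.22. The count of members below 1 RPKM was 5 to 6 without 1 replicate. Requiring a mean of at least 0.1 RPKM removed low genes, Aldh1a3 among them, which left 1 of the other retinoid genes in place of 6 and 1889 of all genes in place of 4423 below 1 RPKM. The difference of Dhrs3 minus Rdh10 ran from -0.013 without replicate 1 to 0.87 without replicate 2. Averaging replicates 3 and 4 into 1 replicate, chosen after seeing the data, left 3 members above and 5 below. No paired analysis was possible because the series has 1 group. Where calls changed with a left-out library or rescaling, the cause was not tested. Depth limits the members under 1 RPKM, most of all Crabp1 and Aldh1a3, with 3 to 16 estimated reads per library. Stra6 had 6 to 35 estimated reads, Crabp2 7 to 21, Cyp26a1 8 to 20 and Aldh1a2 11 to 46.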

Other observations

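Some genes that supply and store retinol were represented in the same libraries. Scarb1, a scavenger receptor that takes up carotenoids, was at 31.5, 33.3, 26.3 and 26.4 RPKM in replicates 1 to 4. Bcmo1, which cleaves beta-carotene to retinal, was at 2.67, 1.41, 1.99 and 1.94 RPKM, and Dgat1, which can esterify retinol, at 20.8, 22.5, 23.1 and 24.3 RPKM. All 3 lay above 1 RPKM in 4 of 4 libraries (limma, adjusted p = 4.47e-07, 0.0118 and 4.40e-07), as did 65.0% of all genes tested by the same test. They were chosen after their values were seen, from the 43 other retinoid genes with a row. Of those 43 genes, 26 lay above 1 RPKM, 6 below and 7 in neither direction, and 4 were at 0. Rbp4, the plasma carrier of retinol, was lowest in replicate 2 (1.33 RPKM), followed by replicate 1 (4.76 RPKM). It reached 17.7 RPKM in replicate 3 and 16.9 RPKM in replicate 4. Replicates 1 and 2 both lay below replicates 3 and 4 for 24.2% of all genes tested. Adh1, an alcohol dehydrogenase that oxidises retinol, was at 24.4 RPKM in replicate 1 and at 5.69 to 7.70 RPKM in the others, with a mean of 10.9 RPKM that became 6.43 RPKM without replicate 1.

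Of the 28 genes whose RefSeq promoters held a DR5 motif, 8 have a row in the table. Of these, 2 lay above 1 RPKM, 4 below, Cyp26a1 among them, and 2 in neither direction, Rarb among them. Over all genes tested the shares were 65.0% above and 26.1% below. The genes with the motif that lay above were Blvrb, biliverdin reductase B, at a mean of 35.1 RPKM and Prokr2, a prokineticin receptor, at 5.61 RPKM.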
